A study of Mus musculus with 3 samples.

Results

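The splicing factor and hnRNP genes were examined for HBO1 peaks from chromatin immunoprecipitation followed by sequencing (ChIP-seq) in mouse embryonic stem cells (ESCs). The genes were all protein-coding genes of the GENCODE vM21 annotation whose symbol starts with Hnrnp, Srsf, Snrp, Sf3 or Prpf, which gave 65 of 21938 coding genes: 20 Hnrnp, 12 Snrp, 13 Prpf, 11 Srsf and 9 Sf3 genes. The study immunoprecipitated HBO1 from Oct1 deficient mouse ESCs, grown with 3 µM of the GSK3b inhibitor CHIR99021, 1 µM of the MEK inhibitor PD03259010 (as the labels spell it, PD0325901 in the study's methods) and ascorbic acid, and fixed with 1% formaldehyde. The samples were 2 HBO1 ChIPs and 1 Input, which is sheared chromatin without immunoprecipitation, and all 3 are labelled with the same Oct1 deficiency and treatment. A supplementary title of the study names WT ESCs instead, and the labels and methods were followed, which was not tested. The second ChIP sample is titled HBO1 while its antibody label reads HBO2, and it was taken as HBO1. A single deposited list holds 13823 peaks and was treated as pooled from both ChIPs, and how they were combined is not given in the sources used here. There is therefore no spread between replicates, no p-value was computed, and the intervals given are exact binomial 95% intervals that cover counting error only. Transcription, and cells with Oct1, were not analysed here.

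HBO1 (Kat7) is a MYST family acetyltransferase that acetylates histone tails in complexes with JADE or BRPF scaffold proteins, and it is found at the starts of many transcribed genes. Pre-mRNA splicing removes introns through the spliceosome, which is built from small nuclear ribonucleoproteins (snRNPs) and many further proteins. The Snrp genes encode core Sm proteins and snRNP-specific proteins, the Sf3 genes encode subunits of the SF3a and SF3b complexes that recognize the branch point, and the Prpf genes encode pre-mRNA processing factors, many of which act in the tri-snRNP. The Srsf genes encode serine- and arginine-rich (SR) proteins that bind exons and regulate splice site choice. The Hnrnp genes encode the heterogeneous nuclear ribonucleoproteins, which coat nascent RNA and regulate splicing, export and stability.

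Of the 65 genes, 43 had an HBO1 peak within 1 kb of a transcription start site (TSS), or 66.2% (53.4 to 77.4), where the share over all coding genes was 21.7%. The distance was measured from the nearest peak edge to the nearest TSS of any transcript of the gene. Because HBO1 peaks were more frequent at GC-rich starts, the members were set beside other coding genes in the same 2% class of GC content, taken over the 1 kb around the outermost TSS. Those classes gave an expected count of 18.3 genes, or 28.2%, so that the members had 2.35 times (1.89 to 2.75) as many genes with a peak. Peaks whose −log10 q, q being the peak caller's false discovery rate, was 10 or more lay at 25 members, or 38.5% (26.7 to 51.4), beside 7.97% of coding genes. A TSS lay inside a peak for 34 members, or 52.3% (39.5 to 64.9), beside 10.9%, and 10 members, or 15.4% (7.63 to 26.5), had 2 or more peaks, beside 3.15%.

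**Figure D1:**
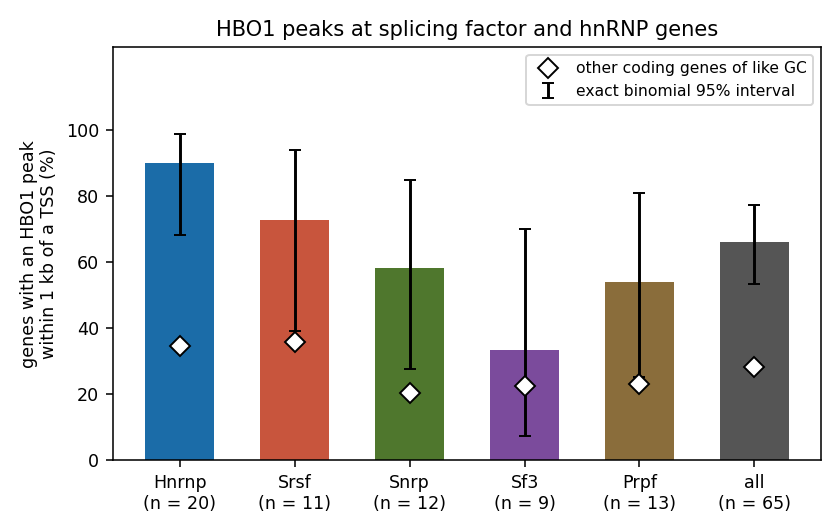
Bars give the percentage of genes with an HBO1 peak within 1 kb of a TSS in each family and over all 65 genes, lines the exact binomial 95% intervals, and diamonds the percentage in other coding genes of like GC content. The Hnrnp bar stands at 90.0% with its diamond at 34.7%, and in the Sf3 family the diamond, at 22.4%, lies inside the interval of the bar.

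Each family had more genes with a peak than its GC classes gave, by between 1.49 times (0.334 to 3.12) for Sf3 and 2.88 times (1.37 to 4.19) for Snrp. In the Hnrnp family 18 of 20 genes had a peak, or 90.0% (68.3 to 98.8), where 6.93 genes were expected. In the Srsf family 8 of 11 genes had a peak, or 72.7% (39.0 to 94.0), and 3.93 were expected. The Snrp family had 7 of 12 genes with a peak, or 58.3% (27.7 to 84.8), with 2.43 expected, and the Prpf family 7 of 13, or 53.8% (25.1 to 80.8), with 3.01 expected. Among the Snrp genes, Snrpn and Snrpa1 had a peak only at an internal TSS. Their GC classes were set at the outermost TSS, and 2.36 and 9.65% of other coding genes in them had a peak. The Sf3 family had the fewest, 3 of 9 genes or 33.3% (7.49 to 70.1), with 2.02 expected, and its interval held the expected 22.4%. The intervals of the Hnrnp and Sf3 families overlapped only between 68.3 and 70.1%, while those of the other families overlapped each other widely, and differences between families were not tested.

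The 2 members with the highest −log10 q, Hnrnpu and Hnrnpa3, were Hnrnp genes. Hnrnpu, which encodes a nuclear matrix and chromatin-associated RNA-binding protein, had the highest, 43.1, in a peak of 1339 bp at chr1:178336377-178337715 (mm10) enriched 4.34-fold by the authors' ratio of ChIP signal over local background. Hnrnpa3, a relative of the A and B type hnRNPs, had the highest fold enrichment of the family, 4.83, with a −log10 q of 36.1 at chr2:75659352-75660148, where the summit lay in an intron 604 bp downstream of the nearest TSS. Hnrnpab, which encodes a further A and B type protein, had a 3.47-fold enrichment at a −log10 q of 30.7 at chr11:51605872-51606890, with the summit 163 bp downstream of the TSS in the untranslated region (UTR). These 3 peaks covered or followed GC-rich starts, with 69.3 to 72.2% GC in the peaks.

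Several Hnrnp genes had more than 1 peak. Hnrnpdl, an AU-rich element binding protein gene, had 3, with −log10 q values of 15.9, 9.13 and 5.97, and the last lay 22 bp from a TSS of the neighbor Enoph1 but 426 bp from that of Hnrnpdl. Hnrnpl, which binds CA repeats in RNA, also had 3, with fold enrichments of 2.55, 2.87 and 3.65, and they lay 97, 0 and 441 bp from TSSs inside the gene, with summits 1255 to 10108 bp from the outermost TSS. Hnrnph1, a G-tract binding protein gene, had a peak with a 3.72-fold enrichment at a −log10 q of 14.4 at its outermost TSS and another with 2.40 and 9.90. Hnrnph3, its paralog, had the lowest values of the family when each gene is taken by its strongest peak, a 1.80-fold enrichment at a −log10 q of 4.26. The weaker peak of Hnrnpd had a −log10 q of 3.84. The remaining 11 Hnrnp genes with a peak, Hnrnpa0, Hnrnpa2b1, Hnrnpc, Hnrnpd, Hnrnpf, Hnrnpk, Hnrnpll, Hnrnpm, Hnrnpr, Hnrnpul1 and Hnrnpul2, reached a −log10 q of between 6.13 for Hnrnpll and 25.0 for Hnrnpf. The family members without a peak were Hnrnpa1, encoding an abundant A and B type protein, with its nearest peak 7991 bp away, and Hnrnph2, with its nearest 15075 bp away.

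Stretches of the GRCm38 reference show the sequence at an Hnrnp summit in an intron and just upstream of the outermost TSS of an Hnrnp gene with a strong peak and of one without a peak. They are the 121 bases around the Hnrnpa3 summit (chr2:75659862-75659982, plus strand, in an intron), the 150 bases before the Hnrnpu start (chr1:178337798-178337947, minus strand) and the 150 bases before the Hnrnpa1 start (chr15:103240282-103240431, plus strand), each printed 5′ to 3′ along the gene. Capitals mark the CCAAT box, the GC box GGGCGG that SP factors bind and the ETS sequence CCGGAAG, on either strand.
Hnrnpa3 summit: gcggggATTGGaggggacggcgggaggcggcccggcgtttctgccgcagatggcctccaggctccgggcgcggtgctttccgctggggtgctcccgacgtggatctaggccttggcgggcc
Hnrnpu upstream: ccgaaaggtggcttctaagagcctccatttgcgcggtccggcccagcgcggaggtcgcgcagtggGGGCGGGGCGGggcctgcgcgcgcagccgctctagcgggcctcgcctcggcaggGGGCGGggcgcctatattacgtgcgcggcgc
Hnrnpa1 upstream: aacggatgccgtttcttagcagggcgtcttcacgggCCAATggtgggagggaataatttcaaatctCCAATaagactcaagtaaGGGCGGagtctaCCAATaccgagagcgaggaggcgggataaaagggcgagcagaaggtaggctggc
The GC content was 74.4% at the Hnrnpa3 summit, 75.3% upstream of Hnrnpu and 53.3% upstream of Hnrnpa1. The stretch upstream of Hnrnpu lies outside the peak of that gene. The Hnrnpu stretch held 3 GC boxes, a pair of which overlap, and no CCAAT box, while the Hnrnpa1 stretch held 3 CCAAT boxes and 1 GC box. Over the member promoters searched, the CCAAT box went the other way, in 55.3% of those with a peak and 31.6% without.

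Among the SR protein genes, Srsf2, Srsf5 and Srsf3 had the highest values. Srsf2, which encodes the SR protein SC35, had a 4.10-fold enrichment at a −log10 q of 35.6 in a peak of 1063 bp at chr11:116852027-116853089, with the summit in the coding sequence (CDS), and a TSS of Mfsd11 also lay inside that peak. Srsf5 had a 3.94-fold enrichment at a −log10 q of 25.8 at chr12:80945519-80946098. Srsf3, which encodes the smallest SR protein, had a peak at its start with a 4.02-fold enrichment at a −log10 q of 22.9. Its other peak, at chr17:29038169-29038679, had the highest fold enrichment of all members, 7.03, but a −log10 q of 9.73, and lay in an intron with the summit 5730 bp from the outermost TSS. Around that summit 2 Input read ends fell in 1 kb, against 76 at the peak at the start. Taking each gene by its strongest peak, Srsf10 had the lowest −log10 q of the family, 9.26, with another peak at 8.36. Srsf1, Srsf4, Srsf6 and Srsf7 reached fold enrichments of 2.39 to 3.05 and −log10 q values of 12.3 to 16.7. The SR genes without a peak were Srsf9, Srsf11 and Srsf12, whose nearest peaks lay 10237, 64718 and 38709 bp away.

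The sequence at the intronic Srsf3 summit, and those upstream of Srsf2 and Srsf9, are given because the first is the member peak with the highest fold enrichment and the other two stand for SR genes of like GC content with and without a peak. They are the 121 bases around the Srsf3 summit (chr17:29038298-29038418, plus strand, in an intron), and the 150 bases before the outermost TSS of Srsf2 (chr11:116853095-116853244, minus strand) and of Srsf9 (chr5:115327027-115327176, plus strand), in GRCm38 and with capitals as above.
Srsf3 summit: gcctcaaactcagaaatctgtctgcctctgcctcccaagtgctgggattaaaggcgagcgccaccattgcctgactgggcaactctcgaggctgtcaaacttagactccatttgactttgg
Srsf2 upstream: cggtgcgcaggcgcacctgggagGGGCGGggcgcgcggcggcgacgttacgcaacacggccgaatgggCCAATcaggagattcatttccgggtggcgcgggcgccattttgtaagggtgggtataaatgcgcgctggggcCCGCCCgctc
Srsf9 upstream: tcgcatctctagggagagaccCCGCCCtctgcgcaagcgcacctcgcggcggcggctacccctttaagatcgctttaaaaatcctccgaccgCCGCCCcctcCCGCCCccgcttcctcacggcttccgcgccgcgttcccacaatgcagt
The Srsf3 stretch had 52.9% GC and held no match to the 3 motifs, and 56.2% of it is marked as repeat in the reference. The Srsf2 and Srsf9 stretches had 69.3 and 66.7% GC and held 2 and 3 GC boxes, and 1 and 0 CCAAT boxes. The Srsf2 stretch lies outside the peak of that gene.

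Of the snRNP protein genes, Snrpd1, which encodes the Sm core protein D1, stood apart with a 6.37-fold enrichment at a −log10 q of 34.8 in a peak over its TSS, where the Input held 45 read ends per 1 kb. Snrpb, encoding the Sm proteins B and B′, followed with 2.95 and 12.0 at chr2:130178777-130179358. Snrpb2 and Snrpa, which encode proteins of the U2 and U1 snRNPs, had fold enrichments of 3.31 and 2.45 and −log10 q values of 8.61 and 8.72. Taking each gene by its strongest peak, Snrpa1, encoding the U2 A′ protein, had the lowest −log10 q of all members, 3.96. Its fold enrichment was 1.91 and its summit lay 3 bp from an internal TSS. Snrpg, for the Sm protein G, reached a −log10 q of 5.27. Snrpn, an imprinted gene transcribed together with Snurf, reached 6.45 in a peak 240 bp from an internal TSS of Snrpn and 178 bp from a TSS of Snurf, with the summit 135724 bp from its outermost TSS. The other Sm genes Snrpd2, Snrpd3, Snrpe and Snrpf, and the U1 protein gene Snrpc, had no peak, and their nearest peaks lay between 16424 bp (Snrpc) and 108128 bp (Snrpf) away. Thus Snrpb, Snrpd1, Snrpg and Snrpn had a peak, and the genes for the remaining Sm proteins D2, D3, E and F did not.

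The SF3 complexes had peaks at Sf3a2, Sf3b3 and Sf3b1. Sf3a2, a subunit of SF3a, had a 2.80-fold enrichment at a −log10 q of 13.0 at chr10:80797546-80798301, with the summit 79 bp upstream of its TSS and a TSS of Plekhj1 inside the same peak. Sf3b3 had 2.45 and 6.58, with a TSS of Cog4 inside the peak, and Sf3b1, the largest SF3b subunit and the one that contacts the branch point, had 2.05 and 6.13. The genes without a peak were Sf3a1, Sf3a3, Sf3b2, Sf3b4, Sf3b5 and Sf3b6, with nearest peaks at 9365, 98254, 71500, 47327, 3121 and 13979 bp. Sf3b5 was thus the nearest member outside the limit of 1 kb.

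Over the 7 Prpf genes with a peak the median −log10 q was 7.60, in a range of 4.37 to 10.9. The medians were 6.58 for Sf3, 8.61 for Snrp, 14.7 for Hnrnp and 16.4 for Srsf, the ranges of the families overlapped in part, and the differences were not tested. Prpf38b had the highest, 10.9, at chr3:108910984-108911629 with a fold enrichment of 2.02, and the Input there held 242 read ends per 1 kb, the most at any member peak. The Input at the outermost start of Prpf38b, 206 read ends, was 2.61 times the median of coding genes of like GC, and the part of this in the peak was not tested. Prpf31, a tri-snRNP protein mutated in retinitis pigmentosa, had the highest fold enrichment of the family, 5.24, with a −log10 q of 10.8, but a TSS of Tfpt lay inside that peak and the nearest TSS of Prpf31 635 bp from it. Prpf38a had 4.98 and 6.15, in a peak 643 bp from its own TSS and 730 bp from that of Orc1, where the Input held 11 read ends and 95.9% of the bases around the summit are marked as repeat. Prpf8, the protein at the center of the spliceosome, was enriched 4.60-fold at the lowest −log10 q of the family, 4.37, at an internal TSS where the Input held 3 read ends. Prpf19, a ubiquitin ligase of the spliceosome, and Prpf39 had −log10 q values of 7.60 and 4.95. Prpf3, Prpf4, Prpf4b, Prpf6, Prpf18 and Prpf40b had no peak, and their nearest peaks lay between 5591 bp (Prpf40b) and 530282 bp (Prpf4b) away.

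**Figure D2:**
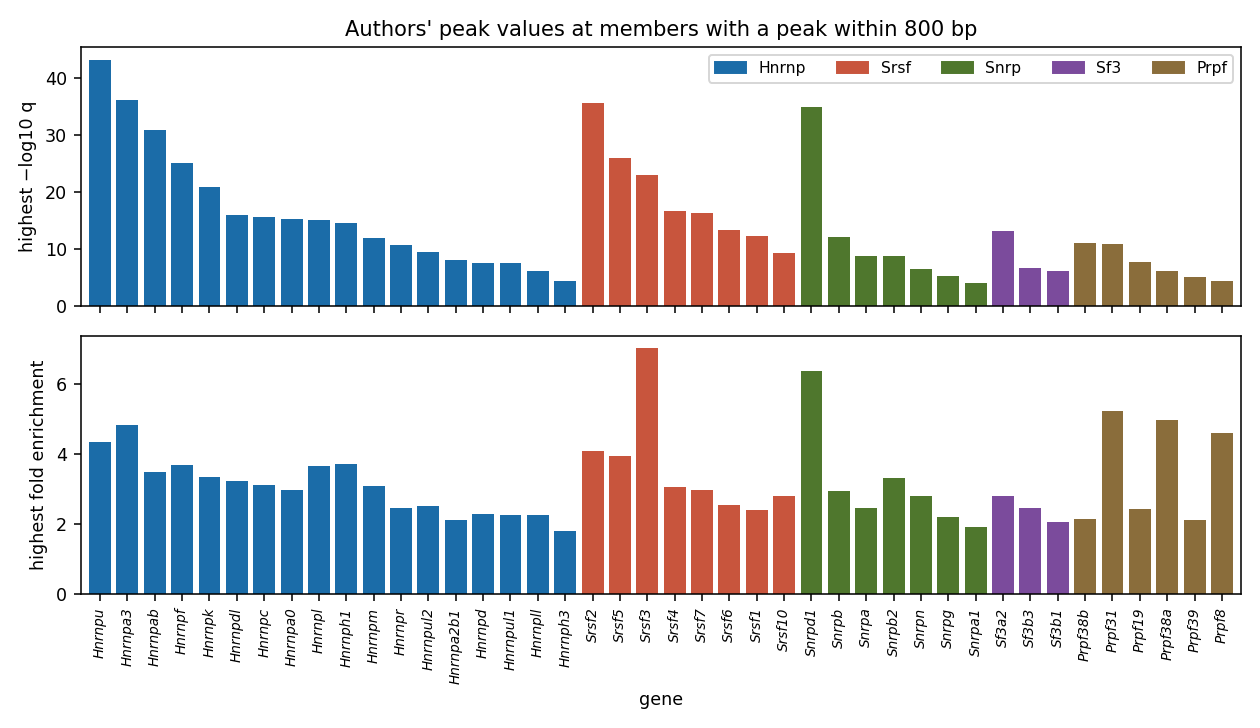
Bars give, for each of the 42 members with a peak within 800 bp of a TSS, the highest −log10 q (upper panel) and the highest fold enrichment over local background (lower panel) among its peaks, colored by family and ordered within it by −log10 q. Hnrnpu, Hnrnpa3, Srsf2 and Snrpd1 have the tallest bars above, from 34.8 to 43.1, and Srsf3 and Snrpd1 the tallest below, at 7.03 and 6.37.

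**Figure D3:**
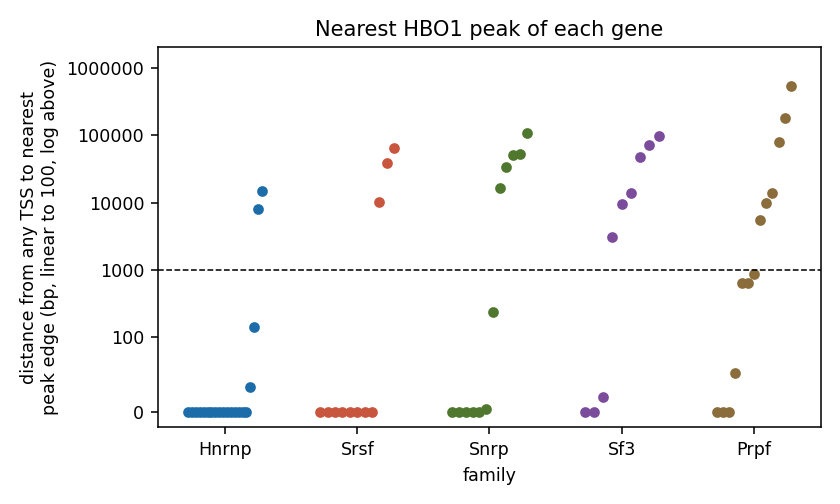
Each of the 65 genes is drawn by the distance in bp from its nearest TSS to the nearest HBO1 peak edge, on a vertical axis that is linear to 100 bp and logarithmic above, in columns by family, with a dashed line at 1 kb. The 43 genes with a peak lie within 1 kb, and the 22 others from 3121 to 530282 bp with a median of 35926 bp.

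Of the 22 members without a peak, 17 lay over 10 kb from the nearest. These distances were not set beside those of other coding genes without a peak. For each of the 43 genes with a peak, the highest fold enrichment and the highest −log10 q were taken separately. At Srsf3, for example, they came from different peaks. The median fold enrichment was 2.95 (range over genes 1.80 to 7.03) and the median −log10 q 10.9 (range 3.96 to 43.1). The medians of 4721 other coding genes with a peak, taken in the same way, were 2.64 and 8.18. Of the 43 members, 25, or 58.1% (42.1 to 73.0), reached a −log10 q of 10, as did 36.5% (35.1 to 37.9) of the others with a peak. The 55 distinct peaks at members had a median width of 542 bp, and the 4949 peaks at other coding genes only one of 437 bp. Peak by peak, the median fold enrichment was 2.80 at members and 2.63 at other coding genes only. The median −log10 q was 10.1 and 7.86, and 50.9 and 34.8% of these peaks reached 10. Of the 55 peaks, 18 also lay within 1 kb of a TSS of another coding gene, and 5 lay nearer to it than to the member, those at Hnrnpdl, Hnrnpa2b1, Prpf31 and Snrpn among them. A further 4, at Srsf2, Sf3a2, Sf3b3 and Hnrnpk, held a TSS of both the member and the other gene, and cannot be assigned to either by distance. Such neighbors were not counted for the peaks of other coding genes. With peaks counted only for the coding gene with the nearest TSS, 40 members (61.5%) had a peak. The ratio to coding genes of like GC was then 2.37, in an alternative chosen after seeing the data. At 6 members, Hnrnpf, Hnrnpl, Hnrnpm, Prpf8, Snrpa1 and Snrpn, the peak lay at a TSS other than the outermost.

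The GC content of the starts moved with the presence of a peak. The median GC content was 57.9% at members and 54.8% at other coding genes, 60.7% at members with a peak and 56.8% at those without. In classes of 5% GC, members with a peak numbered 5 of 12 (41.7%) at 50 to 55% GC, 12 of 19 (63.2%) at 55 to 60%, 9 of 11 (81.8%) at 60 to 65% and 10 of 13 (76.9%) at 65 to 70%. The other coding genes in the same classes had 17.1, 22.3, 32.6 and 46.1%, so that the members stood above them in each. The ratio of observed CpG dinucleotides to those expected from base composition had a median of 0.832 at members and 0.551 at other coding genes. It was 0.879 at members with a peak and 0.734 at those without. At other coding genes with a peak it was 0.80, and their median GC content was 60.9%. No comparison here matched genes on this CpG ratio.

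**Figure D4:**
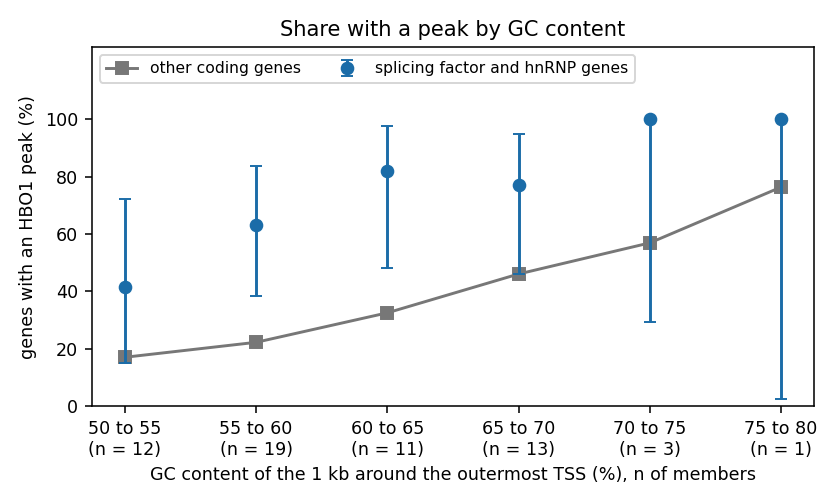
Points give the percentage of members with an HBO1 peak in classes of 5% GC content with exact binomial 95% intervals, and the gray line with squares the percentage of other coding genes. The members stand above the line in each class from 50 to 80% GC, by 41.7 against 17.1% in the first, with 1 member in the last. The line lies inside the intervals of the first class and of the classes above 70% GC.

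Members also had more annotated TSSs, with a median of 5 beside 3 at other coding genes, which gives a gene more places to be near a peak. The part of this in the share of members with a peak was not tested. Among genes with 1 TSS, 2 of 4 members (50.0%) and 9.61% of the others had a peak, and among genes with over 6, 21 of 26 members (80.8%) and 38.7% of the others. Of 36 members with a TSS within 1 kb of another gene's, 21 (58.3%) had a peak, and of the 29 without such a neighbor 22 (75.9%), where the other coding genes had 33.9 and 17.2%. The Input at member starts had a median of 1.08 times that of coding genes of like GC, 1.09 for members with a peak and 1.07 for those without. With classes of GC content and number of TSSs together the ratio to other coding genes was 2.13, and with GC content and Input together 2.33. The 3 member peaks with under 20 Input read ends, at Srsf3, Prpf38a and Prpf8, had a median fold enrichment of 4.98 and the remaining ones 2.75, and at other coding genes these medians were 5.11 and 2.51.

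Peak summits lay mostly downstream of the nearest TSS. Of 55 summits, 39 were downstream, 15 upstream and 1 at the TSS, which is 72.2% (58.4 to 83.5) of those off the TSS, beside 70.6% (69.4 to 71.8) for other coding genes. Summits fell between 0 and 199 bp downstream for 27 member peaks, or 49.1% (35.4 to 62.9), and for 34.4% of the peaks of other coding genes. From 200 to 299 bp the shares were 7.27 and 16.4%. These windows were not among the planned comparisons, and the differences were neither tested nor matched for number of TSSs. By annotation, 22 summits lay in introns (40.0%, beside 35.8% at other coding genes), 12 in UTRs (21.8 beside 22.6%) and 7 in coding sequence (12.7 beside 21.8%). A further 7 lay in noncoding exons (12.7 beside 5.25%), 2 in UTR or coding sequence depending on the transcript (3.64 beside 1.51%) and 5 outside the gene (9.09 beside 13.0%).

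**Figure D5:**
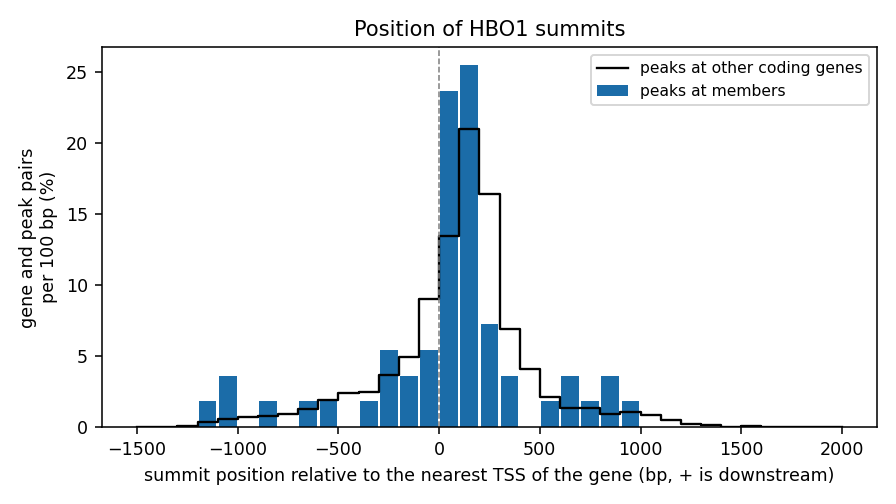
Bars give the percentage of the 55 member peaks whose summit falls in each 100 bp relative to the nearest TSS of the member, in bp with downstream positive, and the black outline the same for 5547 pairs of a peak and another coding gene. The bars from 0 to 199 bp hold 49.1% of member summits and the outline there 34.4%, and from 200 to 299 bp the bar holds 7.27% and the outline 16.4%.

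Sequence motifs were counted in the RefSeq promoters of GRCm38, from 250 bases before to 50 after the start, on both strands, for the 57 members and 16522 coding genes that had one. The GC box GGGCGG was in 66.7% of member promoters and 48.2% of all coding promoters, and in 69.6% of coding promoters with a peak. The ETS sequence CCGGAAG was in 33.3% of member promoters and 12.3% of all, in 26.3% of the 38 with a peak and 47.4% of the 19 without, and in 20.5% of coding promoters with a peak. The CCAAT box was in 55.3% of members with a peak, 31.6% of those without, 38.8% of all coding promoters and 36.6% of coding promoters with a peak. The E-box CACGTG was in 14.0% of members and 8.09% of all, CTCGCGAG in 5.26 and 1.36%, AAGATGGC in 5.26 and 3.27%, GCATGCGC in 1.75 and 3.76% and TATAAA in 10.5 and 12.9%. Split by peak, TATAAA was in 6 of 38 member promoters with a peak and 0 of 19 without (where 3 counts would be 15.8%, the share of the former), and in 6.14% of coding promoters with a peak. CTCGCGAG was in 3 of 38 and 0 of 19, and in 2.82% of coding promoters with a peak. These splits were not tested. The octamer ATGCAAAT, to which Oct1 and Oct4 bind, was in none of the 57 member promoters (up to 5.26%, where 3 counts are taken as the most that a count of 0 allows) and in 1.63% of all coding promoters. Within 200 bp of the summit it was in none of 55 member peaks (up to 5.45% by the same limit of 3 counts, and 6.49% by the exact binomial interval) and in 86 of 13823 peaks of the whole list, or 0.622%. A match is a match of letters and not a bound site. The study reports HBO1 beside Oct4 at a dimeric Oct4 site, the more palindromic octamer related element (MORE). That site was not among the motifs counted, so the octamer counts do not cover it.

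Among spliceosome and splicing regulator genes outside the families, the share with a peak ran from 14.3 to 52.2% by list, and its difference from that of the 65 genes was not tested. Of 33 genes for other snRNP proteins, tri-snRNP and Lsm proteins included, and splice site recognition factors, 16 had a peak, or 48.5% (30.8 to 66.5), 2.00 times the number expected from their GC classes, with the highest −log10 q at Sf1, the branch point binding protein, with 20.8 and a fold enrichment of 3.25. Of 23 genes of spliceosome activation and catalysis, 12 had a peak (52.2%, 30.6 to 73.2), 2.56 times that expected, with Snw1 at 22.5 and Dhx16, a spliceosomal helicase, at 18.6. Of 58 other splicing regulators, 29 had a peak (50.0%, 36.6 to 63.4), 1.69 times that expected, including Srrm2 at 27.1, Qk at 24.5 and Tardbp, encoding TDP-43, at 21.6. Of 7 exon junction complex genes, which mark spliced junctions, only Eif4a3 had a peak (14.3%, 0.361 to 57.9), 0.632 times that expected, and the expected 22.6% lay inside the interval. That peak had a 2.85-fold enrichment at a −log10 q of 13.4.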

How the data were processed

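The authors aligned reads to mm10 with Novoalign 4.03.01 and called peaks with MACS2 at q 0.005, per the labels and methods. The deposited peak list gives a fold enrichment (a ratio over local background) and a −log10 q for each peak, and the deposited Input gives read ends with a mapping quality score. The Input held 31973678 read ends, 21915284 with a score of at least 20. Distances, shares and motifs were computed with Python 3.11.15, pandas 2.3.3, numpy 2.4.6, scipy 1.17.1 and pysam 0.24.0, with TSSs from GENCODE vM21 and sequence from GRCm38. The distance and ratio steps were tested on simulated data. No replicate comparison was made, since the files used here hold 1 peak list and the reads of each ChIP were not analysed here. The members and lists were chosen with earlier results of these data known. Values were given for the members of each family with the 3 highest fold enrichments, the 3 highest −log10 q values and the lowest, for members with 3 or more peaks and for those nearest the 1-kb limit, and further names were chosen after their values were seen. The values of 1 member are not reported here, and it is kept in the counts. Alternatives varied the distance, the TSSs, the q threshold and the GC classes.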

Additional observations from a re-analysis of the deposited data

How the results depend on the processing

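With peaks of a −log10 q of at least 10, the share of members with a peak was 38.5% (25 genes in place of 43), the ratio to coding genes of like GC 3.73 and the median −log10 q 15.5, the last by construction. Without genes that share a start region the ratio was 2.95, over 29 members. With the outermost TSS only, 88.4% of summits lay downstream, where any summit inside the gene is downstream by construction. No value for other coding genes was set beside this share. Leaving out the values just given, the ratio ranged from 2.04 to 2.68 over 22 alternatives and the share from 55.6 to 75.9% over 14, highest without genes that share a start region. The median fold enrichment ranged from 2.84 to 3.24 over 8, highest with a −log10 q of at least 10. The lowest ratio, with classes of GC content, number of TSSs and Input together, and the share without the Hnrnp family, 55.6%, were from alternatives chosen after seeing the data. No paired analysis was possible because the files used here hold 1 peak list for both ChIPs, and for the same reason no replicate could be left out. The reads of each ChIP were not analysed here. The peaks of Srsf3 and Prpf8 with 2 and 3 Input read ends per 1 kb rest on few background reads, and the part of Input depth in their fold enrichment was not tested.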

Other observations

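Inside the bodies of the genes, over 1 kb from each of their TSSs, 6 of the 65 members held 7 peaks, or 9.23% of members beside 12.5% of other coding genes. Per 100 kb of gene body the members held 0.542 such peaks and the other coding genes 0.397. The difference was not tested, and the member rate rests on these 7 peaks. Srsf4 held 2 of them, and the stronger, enriched 4.53-fold at a −log10 q of 19.6, lay 11041 bp from the nearest TSS. Hnrnpl and Hnrnpul1 each held a peak, with fold enrichments of 5.76 and 5.79 and −log10 q values of 10.8 and 6.13. Sf3b5, which had no peak within 1 kb of a TSS, held a peak with its summit 3349 bp away and a −log10 q of 5.75.

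SR protein and hnRNP genes are known for exons whose inclusion leads to nonsense-mediated decay. An exon found only in such transcripts overlapped 1 of 55 member peaks, at Prpf38b, where the exon of 53 bp meets a peak with a −log10 q of 7.02. That gene is neither an SR nor an hnRNP gene. Only peaks within 1 kb of a TSS were searched, and exons overlapping an exon of a coding transcript were left out. The count therefore does not cover such exons farther inside the genes. Among 5547 pairs of a peak and another coding gene the number was 34, or 0.613%.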
